A study of Homo sapiens with 4 samples.

Results

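Polycomb repressive complexes keep developmental genes silent by marking histones. PRC2 methylates histone H3 at lysine 27 through EZH2 or its paralog EZH1, which work with the scaffold subunits EED and SUZ12, and JARID2 guides a form of the complex to chromatin. PRC1 ubiquitinates histone H2A through the RING E3 ligases RNF2 (RING1B) and RING1, paired with a PCGF protein such as BMI1, and its CBX proteins, CBX2 and CBX8 among them, read the PRC2 mark. The 9 genes EZH1, EZH2, EED, SUZ12, JARID2, RNF2, BMI1, CBX2 and CBX8 were taken by symbol from the 60617 gene entries of the deposited table, and each matched 1 Ensembl identifier.

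The cells were SKNMC, an established human Ewing sarcoma line. A tumour of this kind is driven by a fusion of EWSR1 with an ETS factor gene. RNA-seq libraries were made after 24 h in 1 µM CBL0137 (n = 2), a curaxin, a DNA-binding compound that holds the histone chaperone FACT on chromatin, or in the DMSO vehicle (n = 2). The comparison asks how transcript levels after CBL0137 compare with those after vehicle. The labels do not say whether replicates were separate cultures. The p-values therefore set the difference between groups against the spread of these libraries within a group, as edgeR pools it over genes. That spread may be only technical. Both groups come from 1 cell line.

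The libraries held between 19625517 and 21061892 reads assigned to genes. All 9 Ewing sarcoma markers on a list that included CD99, FLI1 and NKX2-2 were above 1 CPM (counts scaled to library size) in every library, with a summed level of 1799 and 1820.0 CPM under DMSO and 1238 and 1298 CPM in the CBL0137 ones. Of these 9 markers 4 fell, CD99 (log2 change -0.69) among them, against 15.1% of all tested genes called lower. The other 5 missed the fold limit of 1.5. NKX2-2 (0.23), LIPI (0.35), EWSR1 (-0.18) and STEAP1 (-0.24) still had an edgeR BH-adjusted p under 0.05, and FLI1 (0.02, adjusted p = 0.77) did not. The 10 markers of immune, epithelial, endothelial and fibroblast cells summed to 356 and 362 CPM with DMSO and to 248 and 266 CPM with CBL0137. PTPRC and DCN made up most of these sums, with log2 changes of -0.49 and -0.52 that were not called, and LUM, a fibroblast gene, fell (-0.79). The epithelial marker EPCAM (1.42, edgeR BH-adjusted p = 7.2e-08) and the endothelial marker CDH5 (1.05, adjusted p = 0.0021) rose, from 2.59 and 3.12 CPM and from 1.37 and 1.67 CPM with DMSO. CDH1, another epithelial marker, was too low to be tested, with 0 counts in each DMSO library and 12 and 10 counts with CBL0137. Of the 10 markers, 5 were under 1 CPM in each library. In each DMSO library 3 were at 0 (CD3E, CDH1 and KRT5), and in each CBL0137 library 1 was, VWF in replicate 1 and CD3E in replicate 2. The part of these markers in the results below was not tested. PTPRC, a pan-leukocyte marker, stood at 162 CPM in both DMSO libraries of this line. In bulk RNA, fewer cells of a type and less RNA per cell cannot be told apart.

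Of the 9 genes, RNF2 fell and 0 rose, so that 1 of 9 was called, against 33.4% of the 17374 tested genes (15.1% called lower). Of all calls 54.6% were higher, or 68.8% with library size alone in place of TMM factors, edgeR's correction for library composition. A gene was called when the edgeR quasi-likelihood test gave a Benjamini-Hochberg adjusted p under 0.05 over all tested genes and the fold was above 1.5. All 9 passed the filter on low counts, and all had an average log2 CPM of at least 5. Of the 6664 tested genes at or above that level 23.6% were called, and 15.4% of the 6664 were called lower. The median log2 fold change of the 9 genes was 0.05, beside 0.01 over all tested genes, and their median absolute log2 fold change was 0.14, beside 0.44 over all tested genes and 0.32 among those 6664. An adjusted p under 0.05 with no fold limit was reached by 5 of 9, against 61.7% of all tested genes and 76.2% of the 6664. Below, it is stated where the groups of a gene did not overlap. Without any difference, 2 libraries separate fully from 2 others with a probability of 0.333. The share of all tested genes without overlap is not given here.

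The start regions of RNF2, BMI1 and EZH2 are shown because RNF2 and BMI1 had the lowest log2 fold changes of the 9 genes and EZH2 the highest level in FPKM. The sequences are RefSeq windows (table build GRCh38.p14), here from 250 bases before to 10 after the annotated start, and an exact match placed each in GRCh37. In RNF2 and BMI1 the capitals mark GCCATNTT, the core letters bound by the zinc finger protein YY1. In EZH2 they mark CCAAT, the letters of the NF-Y box, and TTTNNCGC, letters shared by many E2F sites, each on either strand.
RNF2, chr1:185014440-185014699, plus strand: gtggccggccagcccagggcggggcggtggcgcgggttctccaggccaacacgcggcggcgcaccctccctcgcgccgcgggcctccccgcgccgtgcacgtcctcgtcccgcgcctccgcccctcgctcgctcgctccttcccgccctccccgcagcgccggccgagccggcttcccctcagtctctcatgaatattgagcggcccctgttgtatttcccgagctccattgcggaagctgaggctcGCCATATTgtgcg
BMI1, chr10:22609778-22610037, plus strand: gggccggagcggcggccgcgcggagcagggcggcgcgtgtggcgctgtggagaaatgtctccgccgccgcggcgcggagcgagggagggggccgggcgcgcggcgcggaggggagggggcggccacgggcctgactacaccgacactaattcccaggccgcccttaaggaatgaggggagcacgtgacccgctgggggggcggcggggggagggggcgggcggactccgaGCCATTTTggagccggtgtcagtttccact
EZH2, chr7:148581374-148581633, minus strand: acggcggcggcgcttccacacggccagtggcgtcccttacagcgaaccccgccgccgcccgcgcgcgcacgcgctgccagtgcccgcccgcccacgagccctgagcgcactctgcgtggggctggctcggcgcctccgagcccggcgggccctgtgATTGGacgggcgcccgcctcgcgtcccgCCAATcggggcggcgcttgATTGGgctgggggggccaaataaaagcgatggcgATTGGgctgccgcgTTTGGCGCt
GCCATNTT was found once in the RNF2 window and once in the upstream one of the 2 BMI1 windows, in both on the gene's own strand. In the full windows, which reach 50 bases after the start, it was in none of those of EZH1, EZH2, EED, SUZ12, JARID2 or RING1. CBX2 and CBX8 were not analysed here for these letters. Over all 35116 windows of the same length 6.58% held GCCATNTT, 34.6% held CCAAT and 6.89% held TTTNNCGC on either strand. The first EZH2 window held CCAAT 4 times and TTTNNCGC 1 time, the latter from base 2. Neither was particular to EZH2: CCAAT was also in the EED and SUZ12 windows and the first JARID2 window. TTTNNCGC was also in the EZH1 and SUZ12 windows. These letters were looked for after the values were seen, and a match is a description of sequence only.

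RNF2, the catalytic RING subunit of PRC1 (ENSG00000121481, GRCh37 chromosome 1, 185014658 to 185071735, plus strand), stood at 95.1 and 100.5 CPM in DMSO replicates 1 and 2 and at 42.8 and 44.4 CPM in CBL0137 replicates 1 and 2. Both treated libraries were far below both vehicle libraries. The means were 97.8 ± 3.79 and 43.6 ± 1.17 CPM (SD, n = 2), a log2 change of -1.16 (SE 0.06, 95% interval -1.30 to -1.03, edgeR BH-adjusted p = 3.3e-19), which is a fold of 0.446. Of all tested genes, 5.47% had a lower log2 fold change. The raw counts behind these levels were 1799 and 1870 with DMSO and 940 and 984 with CBL0137. The authors' FPKM values, which are scaled to gene length, showed the same order, at 18.2 and 19.1 under DMSO and at 9.80 and 8.86 under CBL0137. No exon of RNF2 overlaps an exon of another gene of the table in GENCODE 44. A processed pseudogene, RNF2P1, lies on chromosome 9, and the count table sets reads aligned to several places aside in an entry of their own.

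RING1, the paralog that can take the place of RNF2 in PRC1 (ENSG00000204227, chromosome 6, 33176277 to 33180499, plus strand), stood at 79.5 and 77.7 CPM with DMSO and at 63.1 and 67.5 CPM with CBL0137. The groups did not overlap, but the log2 change of -0.27 (SE 0.06, adjusted p = 0.00035) was smaller than the fold limit. The log2 ratio of RNF2 to RING1 in CPM was 0.26 and 0.37 under DMSO, and it was -0.56 and -0.60 under CBL0137. The difference between group means was -0.90, with SDs of 0.08 and 0.03 within groups. With FPKM + 1 the log2 ratio was -0.60 and -0.49 with DMSO and -1.19 and -1.40 with CBL0137, so which of the 2 genes is higher with DMSO depends on the scaling to length, and the CPM ratio shows only unequal change. The ratios were not tested, and an exact two-sided permutation test of 2 libraries against 2 cannot give a p below 0.333. Per length, RNF2 made up 39.3% and 41.2% of the summed RNF2 and RING1 FPKM with DMSO and 29.3% and 26.2% with CBL0137. The sum of both was 46.2 and 46.4 FPKM with DMSO and 33.4 and 33.9 FPKM with CBL0137, lower in both treated libraries.

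**Figure D1:**
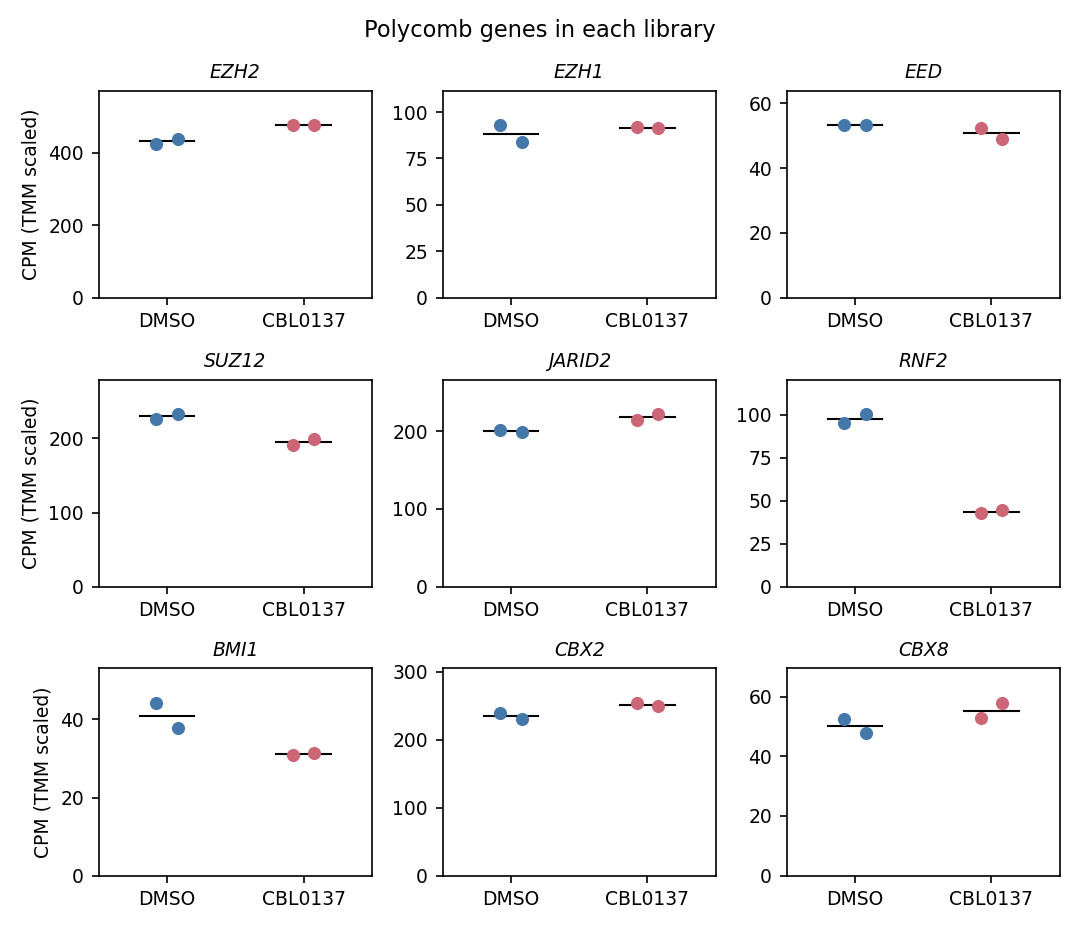
Level of each of the 9 genes in CPM (linear axis from 0, TMM scaled) in the 2 DMSO and the 2 CBL0137 libraries; each point is 1 library and each bar the group mean. RNF2 drops from a mean of 97.8 to 43.6 CPM, while EZH2 stands at 432 and 477 CPM.

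BMI1 (PCGF4), which pairs with the RING subunit and stimulates its ligase activity (ENSG00000168283, chromosome 10, 22610028 to 22620413, plus strand), stood at 44.2 and 37.8 CPM with DMSO and at 30.9 and 31.3 CPM with CBL0137. Both treated libraries were below both vehicle libraries. The log2 change of -0.40 (SE 0.08, 95% interval -0.56 to -0.23, edgeR BH-adjusted p = 6.7e-05) did not reach the fold limit of 1.5, which is 0.585 on the log2 scale. Its value was -0.30 without DMSO replicate 1 and -0.52 without DMSO replicate 2. BMI1 counts are incomplete: 22.8% of its exon bases are shared with the read-through gene COMMD3-BMI1 on the same strand, and the table sets reads that fit more than 1 gene aside as ambiguous. COMMD3-BMI1 had 0 counts in every library. In GENCODE 44 100% of its exon bases are shared with BMI1 or COMMD3 on the same strand. Its reads would thus be set aside as ambiguous, and the 0 does not show that the transcript is absent. The deposited FPKM values for COMMD3-BMI1 were 22.6 and 22.9 with DMSO and 17.1 and 17.3 with CBL0137. The BMI1 FPKM values were 17.3 and 17.8 with DMSO and 13.97 and 14.8 with CBL0137, again without overlap.

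PCGF2 (MEL18), the closest paralog of BMI1, was at 58.7 and 52.6 CPM with DMSO and at 60.3 and 53.9 CPM with CBL0137. These groups overlapped, and the log2 change was 0.04 (SE 0.07, 95% interval -0.11 to 0.18), with a sign that turned without DMSO replicate 2 (-0.06). Of its exon bases 61.5% overlap genes on the opposite strand, and with the strand setting not given in the sources used here its reads and theirs cannot be told apart. The log2 ratio of BMI1 to PCGF2 in CPM was -0.41 and -0.48 with DMSO and -0.96 and -0.78 with CBL0137, a difference of -0.43. Among the 6 PCGF genes, which define the kinds of PRC1, the share of summed FPKM taken by BMI1 was 21.6% and 23.0% with DMSO and 20.6% and 22.4% with CBL0137. The PCGF2 share was 19.1% and 18.6% with DMSO and 26.6% and 25.1% with CBL0137. The summed level of the 6 genes went from a mean of 78.7 to one of 66.8 FPKM, so that BMI1 kept a similar share of a smaller sum and PCGF2 a larger one.

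CBX2 (ENSG00000173894, chromosome 17, 77751947 to 77761782, plus strand) and CBX8 (ENSG00000141570, chromosome 17, 77765931 to 77775482, minus strand) encode chromodomain proteins that bring canonical PRC1 to methylated lysine 27. They lie side by side. CBX2 was at 239.6 and 230.0 CPM with DMSO and at 254.2 and 249.4 CPM with CBL0137, a log2 change of 0.10 (95% interval -0.00 to 0.21, edgeR BH-adjusted p = 0.09). CBX8 was at 52.6 and 47.8 CPM with DMSO and at 52.8 and 57.9 CPM with CBL0137, a log2 change of 0.14 (95% interval -0.01 to 0.28, adjusted p = 0.088). In neither gene did the groups overlap, but CBX8 was nearly equal in DMSO replicate 1 (52.6 CPM) and CBL0137 replicate 1 (52.8 CPM). Both intervals lay within the fold limit. The CBX8 value was 0.06 without DMSO replicate 2 and 0.07 without CBL0137 replicate 2, and the CBX2 value was 0.06 without DMSO replicate 2. Other scalings gave larger values. With library size alone CBX2 was at 0.26 (edgeR BH-adjusted p = 3.6e-05) and CBX8 at 0.30 (adjusted p = 0.00047). With upper-quartile factors they were at 0.17 (adjusted p = 0.0052) and 0.21 (adjusted p = 0.012). The log2 ratio of CBX2 to CBX8 in CPM was 2.19 and 2.27 with DMSO and 2.27 and 2.11 with CBL0137, which overlapped. CBX6, a CBX gene on another chromosome, had a log2 change of -0.48 (SE 0.05, edgeR BH-adjusted p = 3.9e-10), under the fold limit. CBX7 had one of -0.10 (SE 0.15), whose sign turned with library size alone (0.06) and with FPKM (0.17).

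EZH2, the main H3K27 methyltransferase of dividing cells (ENSG00000106462, chromosome 7, 148504349 to 148581413, minus strand), stood at 424 and 439.8 CPM with DMSO and at 476 and 477 CPM with CBL0137. Both treated libraries were slightly above both vehicle libraries. The log2 change of 0.14 (SE 0.05, 95% interval 0.04 to 0.25, edgeR BH-adjusted p = 0.016) was a fold of 1.10, under the limit. Over the alternatives tried the adjusted p ran from 2.5e-06 with library size alone to 0.18 without DMSO replicate 1, where the log2 change was 0.10. EZH2 also has a processed pseudogene, EZH2P1, on chromosome 21.

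EZH1, the paralog that prevails in resting cells (ENSG00000108799, chromosome 17, 40852293 to 40897067, minus strand), stood at 93.0 and 83.6 CPM with DMSO and at 91.7 and 91.5 CPM with CBL0137. The treated libraries lay between the vehicle libraries. The log2 change was 0.05 (SE 0.06, 95% interval -0.07 to 0.18, adjusted p = 0.47) and it was -0.04 without DMSO replicate 2. With library size alone it was 0.21 (edgeR BH-adjusted p = 0.0029). The log2 ratio of EZH1 to EZH2 in CPM was -2.19 and -2.39 with DMSO and -2.38 and -2.38 with CBL0137. In FPKM, EZH2 made up 85.9% and 93.6% of the sum of both with DMSO and 90.8% and 87.0% with CBL0137, so the groups overlapped. The EZH1 FPKM values themselves spread widely within groups, at 16.6 and 7.51 with DMSO and 11.6 and 17.5 with CBL0137, a spread its counts do not show.

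EED, the subunit that binds the methylated lysine (ENSG00000074266, chromosome 11, 85912254 to 85989855, plus strand), stood at 53.3 CPM in both DMSO libraries and at 52.5 and 49.0 CPM with CBL0137, both slightly lower. The log2 change was -0.07 (SE 0.07, 95% interval -0.21 to 0.07, edgeR BH-adjusted p = 0.4), and 0.09 with library size alone. Without CBL0137 replicate 1 it was -0.12, and without CBL0137 replicate 2 it was -0.03. SUZ12, the scaffold that the accessory subunits dock on (ENSG00000178691, chromosome 17, 30264026 to 30328057, plus strand), stood at 227 and 233 CPM with DMSO and at 191 and 199 CPM with CBL0137. Here both treated libraries were lower, with a log2 change of -0.24 (SE 0.05, 95% interval -0.34 to -0.13, adjusted p = 0.00014) that did not reach the fold limit. With library size alone it was -0.08 (adjusted p = 0.19), and over all alternatives the edgeR, DESeq2 or limma adjusted p ran from 8.1e-05 to 0.19. SUZ12 has a near copy on the same chromosome, the transcribed pseudogene SUZ12P1, so some of its reads may be left out or misplaced. JARID2, a DNA-binding accessory subunit (ENSG00000008083, chromosome 6, 15246300 to 15522273, plus strand), stood at 201 and 198.5 CPM with DMSO and at 214.7 and 222 CPM with CBL0137. Its groups did not overlap either, and the log2 change was 0.13 (SE 0.05, 95% interval 0.02 to 0.23, adjusted p = 0.033). Without any 1 library the adjusted p was between 0.05 and 0.22.

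For 8 of the 9 genes the 95% interval of the log2 change lay wholly within the fold limit of 1.5 in either direction. For RNF2 it lay wholly beyond that limit. BMI1 was inside only narrowly, with a lower end of -0.56 beside a log2 limit of 0.585 in either direction. The share of all tested genes with an interval inside the limit is not given here. With library size alone in place of TMM factors the all-gene median of the log2 change moved by 0.16, and the values of the 9 genes moved with it.

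**Figure D2:**
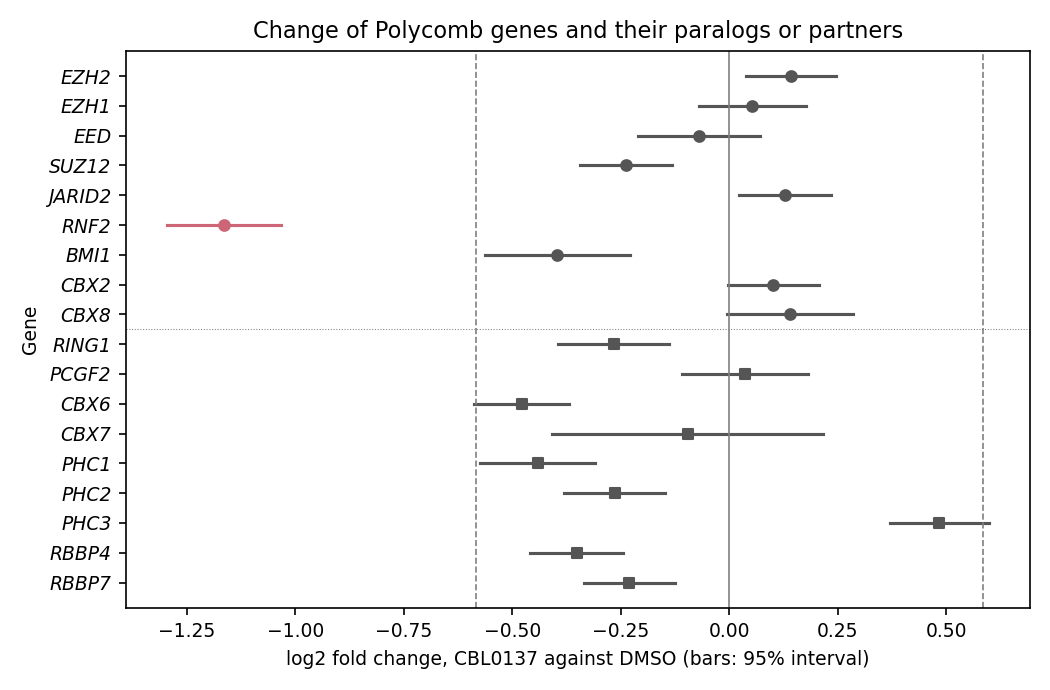
Log2 fold change (points) with 95% interval (bars), CBL0137 against DMSO, for the 9 genes (circles) and for paralogs and partners (squares); dashed lines mark the 1.5-fold limit and red marks a called gene. RNF2 at -1.16 is the single called gene shown, and PHC3 at 0.48 and CBX6 at -0.48 are the nearest to the limit among the squares.

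Levels of different genes were compared per length. In FPKM with DMSO the order by mean was EZH2 (105 ± 5.61), CBX2 (35.4 ± 0.0658), SUZ12 (33.4 ± 1.37), JARID2 (20.3 ± 1.32), RNF2 (18.7 ± 0.664), BMI1 (17.5 ± 0.382), EED (16.5 ± 0.260), EZH1 (12.1 ± 6.46) and CBX8 (8.30 ± 0.731), each as mean and SD of 2 libraries. EZH1 overlapped both neighbours in that order, and no other pair of neighbours did, although with 2 libraries the ranges are narrow. With CBL0137 the order was EZH2 (115.5 ± 2.004), CBX2 (40.7 ± 0.532), SUZ12 (30.8 ± 0.663), JARID2 (25.2 ± 0.128), EED (17.2 ± 0.771), EZH1 (14.5 ± 4.18), BMI1 (14.4 ± 0.553), CBX8 (9.59 ± 0.744) and RNF2 (9.33 ± 0.663). RNF2 thus stood the fifth with DMSO and had the lowest mean FPKM with CBL0137, where its libraries overlapped those of CBX8. The order differed on another scale. In CPM per kilobase of merged GENCODE exons, the DMSO means were 41.4 for CBX2, 40.1 for EZH2, 35.1 for SUZ12, 32.0 for JARID2 and 25.0 for RNF2, with EZH1 (12.6), CBX8 (12.2), BMI1 (9.32) and EED (7.62) below. With CBL0137 they were 44.4 for CBX2, 44.2 for EZH2, 35.0 for JARID2, 29.8 for SUZ12, 13.4 for CBX8, 13.1 for EZH1, 11.2 for RNF2, 7.26 for EED and 7.09 for BMI1. On that scale RNF2 went from 25.0 ± 0.970 to 11.2 ± 0.300, which left it above EED and BMI1.

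**Figure D3:**
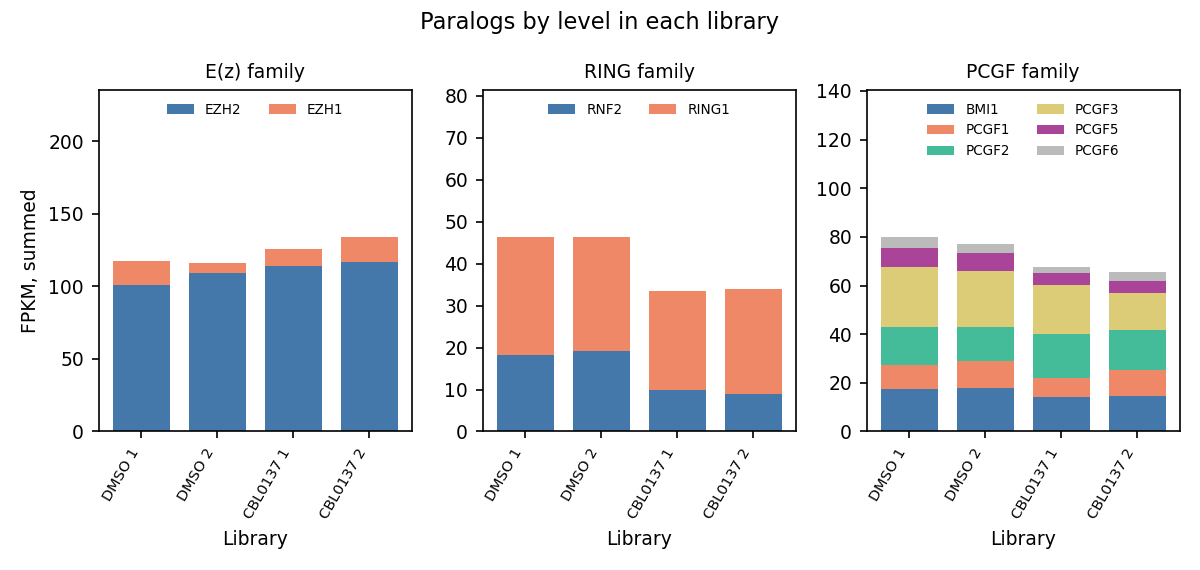
Stacked FPKM (linear axes from 0) of the paralogs that fill 1 place in the complexes, in each of the 4 libraries. In the RING panel the RNF2 part goes from 18.2 and 19.1 FPKM with DMSO to 9.80 and 8.86 FPKM with CBL0137, while the EZH2 part stays the larger one in every library.

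Of 10 other PRC2 genes tested, PHF19 fell, 0 rose and the remaining 9 were not called (median log2 change -0.15). Of all tested genes 33.4% were called, the share to read beside the counts of this and the following lists. PHF19, a Tudor-domain protein that helps PRC2 bind chromatin, went from 53.5 ± 1.69 to 34.4 ± 1.09 CPM (n = 2, SD), for a log2 change of -0.64 (SE 0.07, edgeR BH-adjusted p = 8.1e-10). That call was lost under 3 alternatives: library size alone (-0.48), upper-quartile factors (-0.57) and FPKM (-0.49). The histone-binding subunits RBBP4 (-0.35, SE 0.05) and RBBP7 (-0.23, SE 0.05) were under the fold limit, and RBBP4 was at 0.05 with FPKM. EPOP (0.31, SE 0.11) and LCOR (0.23, SE 0.06), whose products bind variant forms of PRC2, had values above 0 that were not called.

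Of 11 other canonical PRC1 genes, 1 rose, 1 fell and 9 were not called (median -0.26). SCML1, a relative of the Drosophila Polycomb gene Scm, rose from 52.3 ± 3.799 to 103 ± 4.19 CPM (n = 2, SD), for a log2 change of 0.98 (SE 0.06, edgeR BH-adjusted p = 6.9e-17). SCMH1, another relative of Scm, fell from 78.3 ± 1.78 to 49.3 ± 0.916 CPM (log2 change -0.67, SE 0.07), a call lost with library size alone (-0.51). The PHC genes, whose products polymerize and gather PRC1 on chromatin, had values of both signs under the fold limit: PHC3 was at 0.48 (SE 0.06, and called with library size alone at 0.64), PHC1 at -0.44 (SE 0.07) and PHC2 at -0.26 (SE 0.06).

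Of 22 genes of variant PRC1, which lacks a CBX protein, 1 rose, 3 fell and 18 were not called (median -0.22). PCGF5 fell from 81.8 ± 1.55 to 46.1 ± 1.70 CPM (n = 2, SD), for a log2 change of -0.83 (SE 0.07, edgeR BH-adjusted p = 2.1e-14), a call lost with FPKM (-0.47). E2F6 (-0.68, SE 0.07) and TFDP1 (-0.64, SE 0.05), which encode a DNA-binding pair found in the PCGF6 complex, also fell. Both calls were lost with library size alone, at -0.53 and -0.48, and 0 of the 22 genes were called with FPKM. SKP1 was called higher from counts (0.64, SE 0.06) but had a log2 difference of -0.52 with FPKM, so its direction depends on the measure. Without DMSO replicate 2 it was 0.54 and not called.

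The PR-DUB complex removes the ubiquitin that PRC1 adds. Of its 11 genes 1 fell, 0 rose and 10 were not called (median -0.06). OGT, the O-GlcNAc transferase that binds this complex and has many other substrates, went from 1265 ± 25.2 to 524 ± 25.8 CPM (n = 2, SD), for a log2 change of -1.27 (SE 0.05, edgeR BH-adjusted p = 3.7e-23). Both CBL0137 libraries of OGT, at 506 and 542 CPM, were below both DMSO libraries, at 1247 and 1283 CPM.

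Of 12 genes for enzymes that oppose Polycomb marking, 0 were called with edgeR or with DESeq2 (median 0.00), against 33.4% of all tested genes with edgeR. In edgeR 7 of the 12 had an unadjusted p under 0.05, beside 11262 of all 17374 tested genes. KDM6A, an H3K27 demethylase, was at 53.1 and 54.9 CPM with DMSO and at 71.6 and 74.0 CPM with CBL0137. That is a log2 change of 0.43 (SE 0.07, edgeR BH-adjusted p = 2.7e-07), under the limit, and called with library size alone (0.59). KDM6B, the other main demethylase, was at -0.06 (SE 0.06), and KMT2C, an H3K4 methyltransferase gene, at 0.52 (SE 0.05, and called with library size alone at 0.67).

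HOX genes and other developmental factors are silenced by Polycomb in many cells, and genes of both kinds changed in both directions here. Of 39 HOX genes 28 were tested, of which 13 rose (18.2% of all tested genes were called higher), 3 fell and 12 were not called (median 0.62). HOXC9 rose from 8.40 ± 0.359 to 28.2 ± 1.69 CPM (n = 2, SD), for a log2 change of 1.745 (SE 0.11), and HOXC12 (1.41), HOXC13 (1.07), HOXB7 (1.03) and HOXB13 (0.85) also rose, while HOXD8 (-1.43), HOXD13 (-0.96) and HOXB4 (-0.75) fell. The 11 HOX genes that were not tested were at or under 0.430 CPM in every library, and a gene low with DMSO could pass the filter through the CBL0137 libraries, so the count describes the tested genes only. HOXC9, HOXC13 and HOXD8 share exon bases with antisense genes, and the HOXB4 call was lost with FPKM and without DMSO replicate 1 (-0.53).

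Of 91 other developmental transcription factor genes 54 were tested, 14 rose, 13 fell and 27 were not called (median -0.10). Of all tested genes 18.2% were called higher and 15.1% lower. The 14 include genes that passed the filter on low counts only through the CBL0137 libraries, such as FOXD3 (9 and 8 counts with DMSO, 97 and 92 with CBL0137), LHX1 and ATOH1, so this count too describes the tested genes only. DLX3 (1.91), GATA2 (1.49), POU4F1 (1.33), MSX2 (1.05) and LHX9 (0.88) rose, and TWIST1 (-1.21), MEIS1 (-1.13), PAX6 (-1.03), PAX7 (-0.99) and POU3F2 (-0.70) fell. GATA2 went from 36.9 and 37.7 CPM with DMSO to 108 and 102 CPM with CBL0137, and PAX7 from 234 and 245 CPM to 120 and 121 CPM. GATA2, POU4F1, TWIST1, MEIS1 and PAX6 share exon bases with genes on the other strand. The MEIS1 call was lost with FPKM, and the POU3F2 call with FPKM and with library size alone (-0.54). The INK4 genes, classical targets of BMI1, were not called: CDKN2A was at 67.2 and 62.5 CPM with DMSO and at 89.0 and 80.4 CPM with CBL0137 (log2 fold change 0.39, SE 0.07, edgeR BH-adjusted p = 2.2e-06). CDKN2B was between 0.683 and 1.83 CPM in each library (-0.39, SE 0.44), and at 0.38 without DMSO replicate 2. CDKN2A shares 15.3% of its exon bases with the antisense gene CDKN2B-AS1.

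**Figure D4:**
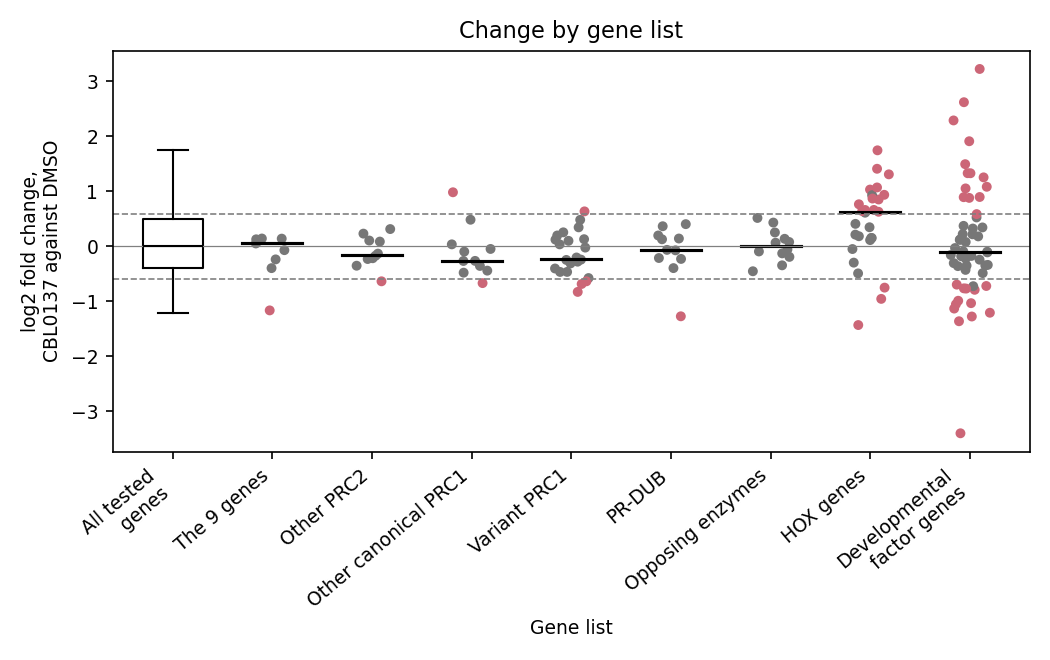
Log2 fold change, CBL0137 against DMSO, of every tested gene in each list (points, red where called, spread sideways only for visibility) with the list median as a bar, beside all 17374 tested genes (box with quartiles, whiskers from the 5th to the 95th percentile). Of the 9 genes 8 lie between -0.40 and 0.14 and RNF2 at -1.16, and the HOX genes have a median of 0.62.

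By Euclidean distance of log2 CPM from the DMSO mean over the 4 libraries, the genes most like EZH1, where the search took in tested genes whose mean log2 CPM was 3 or more, were MAPKBP1, DDX49 and MORC2, at distances from 0.0133 to 0.0206. For RNF2, added after its values were seen, they were IRS2, DRAM2 and MAPK6, at 0.0103 to 0.0369.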

How the data were processed

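RNA was measured in 2 DMSO and 2 CBL0137 libraries, grouped by sample title. The authors deposited raw read counts per gene, made with Trim Galore, HISAT2 on hg19 and HTSeq 0.11.1, per the series' design text. The authors also deposited FPKM values, from reads per gene, gene length and depth per that text, with tool, annotation and strand setting not given in the sources used here. Beside hg19, mm10 is named in the submitters' processing notes, without its role. Of 60617 gene entries, those passing a filter on low counts were tested, and 6 entries that name no gene were left out: reads in no feature were 8.52% to 10.3% of each library, ambiguous ones 8.75% to 9.34% and multiply aligned ones 6.91% to 7.13%. Depth limits precision: CPM of the 9 genes rest on 680 to 10565 counts per library.

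Counts were fitted with edgeR 4.0.16 in R 4.3.3 (glmQLFit, glmQLFTest, TMM factors 0.943 to 1.06, filterByExpr, all 4 libraries, 17374 genes tested). SE is the absolute log2 fold change over the square root of F. Replicates differed by more than sampling noise (chi-square per degree of freedom 2.95 and 2.68). Alternatives used DESeq2 1.42.0, other scalings and filters, a replicate block, limma 3.58.1 on log2(FPKM + 1), which understates changes of low genes, and the fit without each library. A fit without 1 library leaves 1 in that group, so its p-values rest on the other group and on spread pooled over genes. The script was tested on simulated data. Positions and exon overlaps came from GENCODE 44 on GRCh37, the build of hg19. Levels of different genes were compared only per length. Ratios of paralogs in CPM are not scaled to length and show change between groups only.

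The members and lists were chosen with earlier results of these data known. Named genes are the 9 members, at most 5 called genes per list and direction with the smallest p, and RING1, PCGF2, KDM6A, KDM6B, CDKN2A and CDKN2B. RBBP4, RBBP7, EPOP, LCOR, PHC1, PHC2, PHC3, CBX6, CBX7, KMT2C, COMMD3, COMMD3-BMI1, CD99, PTPRC, the other markers given with values and the genes most like RNF2 were added after their values were seen. The genes most like EZH2 and the shares within the CBX family are not reported here.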

Additional observations from a re-analysis of the deposited data

How the results depend on the processing

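RNF2 was the 1 gene of 9 called under every scaling, filter, test and left-out library tried, with log2 fold changes from -1.22 to -0.93, and with a fold above 2. With no fold limit 5 of the 9 were called, against 61.7% of all tested genes. EED turned to 0.090 under library size alone and 0.058 under FPKM, and EZH1 ranged from -0.038 to 0.11 over left-out libraries. Over all genes 5798 were called, against 3223 by FPKM, 10722 without a fold limit and 3206 past a fold of 2. The share of higher calls was 54.6%, but 68.8% with library size alone. The replicate block changed no call among the 9 (RNF2 at -1.16, 5741 genes called). Deviations of same-numbered libraries from their group means correlated at 0.0080 over genes. With 2 libraries per group this cannot show whether same-numbered libraries were prepared together.

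With no fold limit the calls were 6 in other PRC2 genes, 8 in other canonical PRC1, 16 in variant PRC1, 8 in PR-DUB and 7 in opposing enzymes. With a fold above 2 the calls were 0, 0 and 0 in the first 3 lists. They were 6 of 28 tested HOX genes and 17 of 54 tested developmental factor genes, beside 3206 of all 17374 tested genes. Other PRC2 genes had 0 calls with library size alone, upper-quartile factors or FPKM. FPKM gave 0 calls in variant PRC1, 2 in PR-DUB, 1 in opposing enzymes and 14 in developmental factor genes, and library size alone gave 2 in opposing enzymes. The cause was not tested.

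The difference between groups in the log2 ratio of EZH1 to EZH2 was -0.09, 0.18 with FPKM and -0.19 to 0.014 over left-out libraries. For CBX2 to CBX8 it was -0.04, 0.012 with FPKM and -0.12 to 0.040 over left-out libraries. For RNF2 to RING1 it was -0.90 and -0.75 with FPKM. Signs also turned for SKP1 (-0.52 with FPKM), RBBP4 (0.052 with FPKM), CBX7 (0.063 with library size alone, 0.17 with FPKM), CDKN2B (-0.92 to 0.38 over left-out libraries) and PCGF2 (-0.056 to 0.11 over left-out libraries). KDM6B turned to 0.10, 0.011 and 0.11 under library size alone, upper-quartile factors and FPKM, and over left-out libraries it ranged from -0.15 to 0.027. CDKN2B was too low for the stricter filter.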
